A study of Medicago sativa with 9 samples.

Results

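Long intergenic transcripts without an assigned strand were described in leaves of alfalfa, a forage legume with 4 copies of each of 8 chromosomes. They were chosen from a table of 64684 predicted long non-coding RNAs (lncRNAs) as the intergenic transcripts on a chromosome with a single exon, no strand and a length of at least 1000 bases. 1265 transcripts met the rule, which is 1.96% of the table and 3.95% of its 32042 strandless single-exon intergenic transcripts on chromosomes. The rule used annotation and length and no expression value. Each of the 1265 is a locus of its own and has no host gene name in the table. They are called long strandless transcripts below.

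The leaves came from field-grown plants of the cultivar Kangsai in 3 groups of 3 libraries. A control group is labelled CK, and what it was sprayed with is not stated. Low Se plants received selenium at 100 mg/L and high Se plants at 500 mg/L, given as selenite per the series description, in repeated weekly sprays of all groups that began at a fixed plant height. Since 3 concentrations of selenite are mentioned in the study's design, it is not certain that the control is a zero dose. The labels do not say if the 3 libraries of a group are separate plants. The p-values therefore reflect the library-to-library spread alone, which may be technical. The table lists lncRNAs alone, so leaf identity could not be checked against marker genes. In such bulk samples, fewer cells of a type and less RNA per cell cannot be told apart.

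An lncRNA is a long transcript that is predicted not to encode a protein. Such RNAs can act at the locus where they are made, can bind proteins or small RNAs, or can have no function beyond being transcribed. An assembler commonly reads the strand of a transcript from its splice sites, which a single-exon model does not have. In this table, 465 single-exon intergenic transcripts of at least 1000 bases on chromosomes did have a strand. The libraries were made with dUTP, a protocol that can keep the strand of reads, and how the assembly used this is not stated. Why the 1265 lack a strand was not tested. Without a strand, a transcript cannot be told from its antisense partner. Plants take up selenite, an inorganic selenium salt, and convert it to organic selenium through the enzymes of sulfur assimilation.

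Sequencing depth was 1.44 to 2.97 aligned gigabases per library, as inferred from the ratio of coverage to FPKM (fragments per kilobase of transcript, scaled to the mapped fragments of the library). At this depth the median long strandless transcript had 14.8 to 35.7 estimated reads per library. The median over all transcripts of the table and all libraries was 0. Control 1 and low Se 1 stood apart from their groups: over the 1179 long strandless transcripts that could be tested, control 1 correlated with control 2 and control 3 at r = 0.327 and 0.326, while those 2 correlated at 0.574. Low Se 1 correlated with low Se 2 and low Se 3 at 0.423 and 0.422, while those 2 correlated at 0.55. The 3 high Se libraries correlated with one another at 0.49 to 0.546. These values are across transcripts, which are not independent replicates, and depend on the depth of the libraries.

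Their lengths ran from 1000 to 6518 bases, with a median of 1279 and quartiles of 1123 and 1574. The 5 longest were MSTRG.89956.1 (6518 bases, chromosome 5.1, 28198932 to 28205449), MSTRG.12074.1 (5413 bases, chromosome 1.2, 13864965 to 13870377), MSTRG.131316.1 (4233 bases, chromosome 7.3), MSTRG.112374.1 (4149 bases, chromosome 6.2) and MSTRG.22685.1 (4089 bases, chromosome 1.4). All coordinates are those of the deposited table, whose genome build is not given in the sources used here. MSTRG.89956.1 reached 12.7 FPKM in control 3 and 13.4 in low Se 1, while control 1, low Se 3 and high Se 1 were listed at 0. The longest transcript was thus on in some libraries and off in others of every group. MSTRG.112374.1 was above 0 in all libraries, at 0.879 to 3.92 FPKM. At the length limit, 3 transcripts of exactly 1000 bases, MSTRG.17594.1, MSTRG.130728.1 and MSTRG.54864.1, had means of 1.46, 1.12 and 1.07 FPKM over the 9 libraries. Just outside it, 3 transcripts that were 1 base shorter, MSTRG.29238.1, MSTRG.44300.1 and MSTRG.37750.1, had means of 2.08, 0.973 and 0.815 FPKM.

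Long strandless transcripts lay on all 32 chromosome copies, at 0.462 per megabase when the highest listed end is taken as the chromosome length. Density ran from 0.306 per megabase on chromosome 7.4 to 0.666 on chromosome 2.4. Summed over chromosomes, the 4 homologous copies held 305, 313, 328 and 319 of them. A further listed lncRNA lay within 10 kb of 980 of the 1265 (77.5%), and for 339 (26.8%) an intergenic lncRNA with an assigned strand did. The median gap to the nearest listed lncRNA was 1070 bases, and 38 overlapped a listed lncRNA. The distance to protein-coding genes was not analysed here.

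The deposited coding potential scores, from columns named CPC and CNCI, moved with length. The median CPC score was 0.028 for long strandless transcripts, 0.0159 for strandless ones of 300 to under 1000 bases and 0.012 for those under 300 bases. Single-exon intergenic transcripts with a strand and at least 1000 bases, 465 in all, had a median of 0.0288, close to the value of their strandless counterparts. Only 8 long strandless transcripts had a CPC score above 0.4, with 0.476 as the highest. The whole table, which lists predicted lncRNAs alone, had no score above 0.493, so a low ceiling is not particular to them. For CNCI, 21.3% of them sat at the score nearest to 0 in the table, -0.00041, against 52.9% and 67.6% of the shorter strandless sets and 24.9% of the long transcripts with a strand. These are descriptions of sets, and no test between them was run.

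Detection was broad. Of the 1265, 508 (40.2%) were above 0 in all 9 libraries, against 11.6% of the whole table, and 111 (8.77%) were above 0 in at most 3 libraries, against 44.4%. The share above 0 in all libraries was 7.54% for strandless transcripts of 300 to under 1000 bases and 1.3% for those under 300 bases, and it was 73.3% for long transcripts with a strand. Within the long strandless transcripts it was 33.7% from 1000 to under 1200 bases, 35.3% up to 1500, 46.7% up to 2000 and 68.5% at 2000 bases or more. Reads moved with it: the median estimated reads per library in these 4 length ranges were 17.7, 21.6, 34.2 and 72.3. Length is a factor in this estimate, so it rises with length at equal coverage. The part of depth in the detection of long and short transcripts was not tested.

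**Figure D1:**
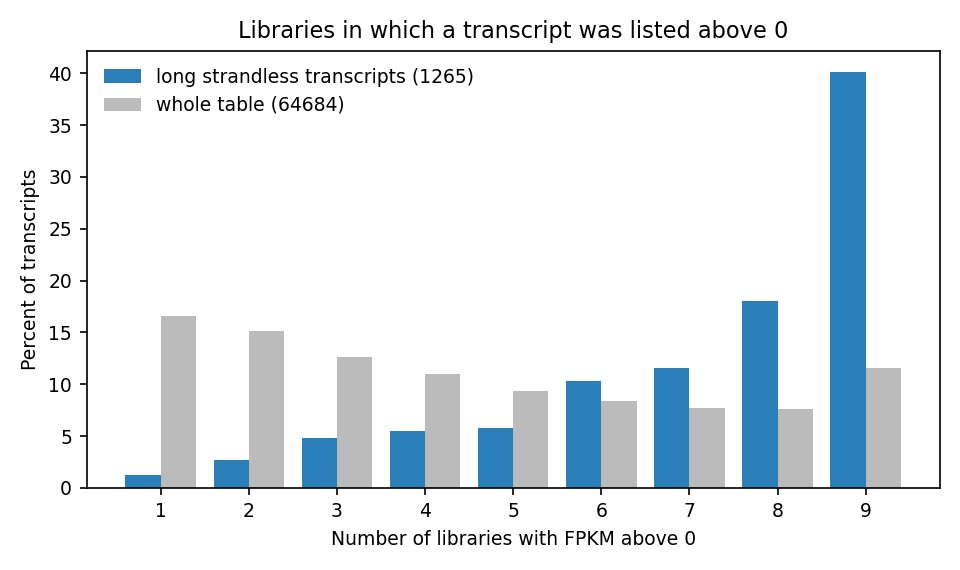
Percent of transcripts (vertical axis) by the number of libraries in which they were listed above 0 FPKM (horizontal axis), for the 1265 long strandless transcripts and for the whole table. The bar at 9 libraries stands at 40.2% for the long strandless transcripts and at 11.6% for the table.

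More long strandless transcripts were above 0 in high Se libraries, at 1062 ± 27.9, than in control, at 969.7 ± 79.4, or low Se, at 1004 ± 48.5 (mean ± SD, n = 3 each). The counts were 1039, 987 and 883 in the control libraries, 1004, 1052 and 955 in low Se and 1031, 1085 and 1070 in high Se. Control 1 was above high Se 1 and low Se 2 was above high Se 1, so the ranges overlap. The whole table showed the same order. Control libraries had 46.5% ± 6.53 of its transcripts above 0, low Se libraries 47.6% ± 4.14 and high Se libraries 54.3% ± 2.77. Mean depth was also highest in high Se, but depth and count did not always go together. The deepest library, high Se 2 (2.97 aligned gigabases), had the highest count. Yet control 3, at 2.78, had the lowest count, and control 2, at 1.44, exceeded it. The part of depth in these counts was not tested. Of the aligned bases on listed lncRNAs, the 1265 took 4.72% ± 0.0538 in control libraries, 4.25% ± 0.415 in low Se ones and 5.46% ± 0.25 in high Se ones. The high Se libraries, at 5.41%, 5.73% and 5.24%, were all above the other 6, which ran from 3.93% to 4.78%. This full separation rested on the 2 most abundant, MSTRG.109435.1 and MSTRG.36675.1. Leaving them out was a choice made after the data were seen. The high Se libraries then had 3.87% to 4.38% and control 2 had 4.20%, so the ranges overlap. The remaining control and low Se libraries, at 3.18% to 3.64%, stayed below every high Se library. The group means kept their order, with high Se at 4.06%, control at 3.76% and low Se at 3.39%. No p-value is given for such sums over chosen transcripts.

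Levels were low and uneven. The mean over 9 libraries was under 1 FPKM for 445 of the 1265, 1 to 10 FPKM for 779 and 10 FPKM or more for 41, with a median of 1.31. The 10 highest transcripts took 26.3% to 43.3% of the summed FPKM of the 1265 in a library. The median coefficient of variation over the 9 libraries was 83.4%, against 162% for the whole table, 152% for strandless transcripts of 300 to under 1000 bases and 64.1% for long transcripts with a strand. Among the 508 above 0 in all libraries, the highest library exceeded the lowest 7.47-fold in the median transcript, and for 4 of them this ratio was under 2.

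The most abundant was MSTRG.109435.1, of 1973 bases on chromosome 6.2 (4999478 to 5001450). It had 1032, 262 and 691 FPKM in control, 562, 196 and 381 in low Se and 788, 578 and 820 in high Se. Its groups overlap, and no difference among them passed (limma F test, adjusted p = 0.642). Next came MSTRG.36675.1, described with the dose comparisons, and MSTRG.93898.1 (1194 bases, chromosome 5.2, 18736777 to 18737970). MSTRG.93898.1 had 3.75, 420 and 47.99 FPKM in control, 1.70, 0.223 and 431 in low Se and 6.51, 47.5 and 6.81 in high Se. It was high in control 2 and low Se 3 and low in the libraries beside them, so its spread within groups exceeded any difference between groups (adjusted p = 0.757 in the same test).

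MSTRG.32508.1 (1108 bases, chromosome 2.2, 12145193 to 12146300) had 107, 128 and 124 FPKM in control, 34.5, 51.7 and 10.8 in low Se and 205, 89.2 and 188 in high Se. Every low Se library was below every other library, though the change from high Se did not pass (2.49 ± 0.58 SE on the log2 scale, limma adjusted p = 0.288). MSTRG.138774.1 (1382 bases, chromosome 8.1, 1438606 to 1439987) had 12.6, 38.4 and 54.4 FPKM in control, 46.96, 56.3 and 34.7 in low Se and 114, 101 and 95.7 in high Se. MSTRG.63377.1 (1237 bases, chromosome 3.4, 64443562 to 64444798) had 32.6, 18.7 and 61.5 FPKM in control, 38.2, 38.6 and 28.7 in low Se and 91.3, 67.6 and 137 in high Se. For both, all high Se libraries were above the other 6, with limma adjusted p of 0.375 and 0.434 against control. MSTRG.50607.1 (1108 bases, chromosome 3.2) and MSTRG.153264.1 (1350 bases, chromosome 8.3) had means of 75.9 and 53.9 FPKM with overlapping groups. None of the 10 most abundant passed the test for any difference, with limma adjusted p from 0.0513 to 0.884.

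**Figure D2:**
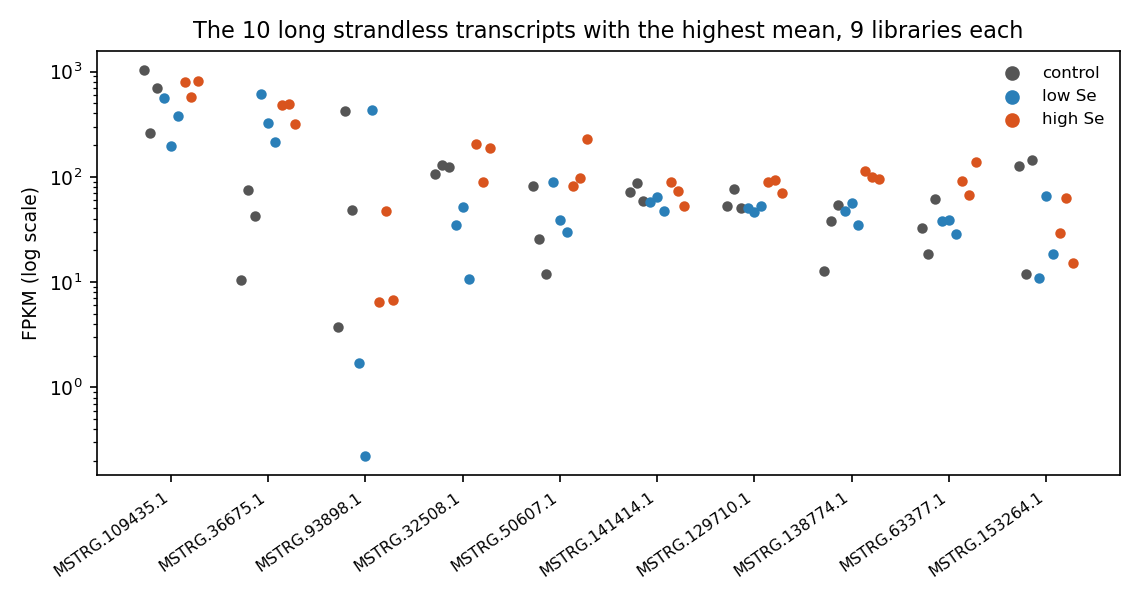
FPKM on a log scale (vertical axis) for the 10 long strandless transcripts with the highest mean (horizontal axis), with a point per library coloured by group. MSTRG.36675.1 has its 3 control libraries below the 6 selenite libraries, and MSTRG.93898.1 runs from 0.223 to 431 FPKM.

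Steady transcripts were few. The 5 with the lowest coefficient of variation among those above 0 everywhere and with a mean of at least 1 FPKM were MSTRG.102777.1 (14.8%), MSTRG.156237.1 (20.8%), MSTRG.141414.1 (21.7%), MSTRG.110074.1 (22.1%) and MSTRG.42569.1 (23.9%). MSTRG.102777.1, of 2586 bases on chromosome 5.4 (17917155 to 17919740), had 3.00, 2.86 and 2.55 FPKM in control, 2.51, 2.84 and 2.299 in low Se and 2.27, 1.92 and 2.10 in high Se. Its high Se libraries were all below the other 6, by small amounts that did not pass (limma adjusted p = 0.905 against control). MSTRG.141414.1, of 1752 bases on chromosome 8.1 (38301205 to 38302956), was both steady and abundant, with 72.0, 88.0 and 59.1 FPKM in control, 58.1, 64.8 and 47.0 in low Se and 88.3, 72.5 and 52.8 in high Se. MSTRG.129710.1 (2064 bases, chromosome 7.3, 11068272 to 11070335) was also above 40 FPKM in all libraries, from 46.5 in low Se 2 to 93.7 in high Se 2.

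Other transcripts switched between libraries of 1 group. In 109 of the 1265 (8.62%), some group held a library at 0 and a library at 5 FPKM or more, a limit chosen after the values were seen, against 13.8% of the whole table. Of the 96 with a mean of at least 5 FPKM, 17 (17.7%) did so, against 895 of 2908 (30.8%) in the whole table. The 3 examples that follow were chosen after their values were seen. MSTRG.126487.1 had 0.0514, 24.9 and 25.2 FPKM in control, 19.3, 0 and 23.8 in low Se and 19.4, 1.017 and 27.3 in high Se. MSTRG.134429.1 had 17.1, 7.83 and 0 in control, 0, 21.0 and 19.6 in low Se and 0, 34.4 and 16.02 in high Se. Each had at least 1 library near or at 0 in every group. MSTRG.124537.1 was listed at 92.0 FPKM in high Se 2 and at 0 in the other 8 libraries. Its CPC and CNCI scores equal those of MSTRG.129710.1, which had 93.7 FPKM in high Se 2. Whether reads were divided between these transcripts was not tested.

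The first comparison asked which long strandless transcripts differed at the lower dose. The test needs an average of 0.5 FPKM or more over the libraries, which 1179 reached, and 2 of them passed at an adjusted p below 0.05: MSTRG.69946.1 rose and MSTRG.129749.1 fell in low Se. The share over all 43763 tested transcripts was 0.0274%. An unadjusted p under 0.05 was reached by 111 of them (9.41%, against 8.43% of all tested), of which 49 were higher in low Se (background 4.3%) and 62 lower (background 4.13%). The median log2 change was 0.05, against 0 for all tested transcripts. Groups did not overlap for 89 that were higher in low Se (7.55%, background 4.78%) and 80 that were lower (6.79%, background 4.32%). A tie at 0 counts as an overlap, and long strandless transcripts hold fewer zeros than the table, so the shares are not compared further.

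MSTRG.69946.1 is 1148 bases long and lies on chromosome 4.1 (49415291 to 49416438), with no listed lncRNA within 10 kb. It was listed at 0 in the 3 control libraries, at 78.4, 30.7 and 34.0 FPKM in low Se and at 13.0, 9.82 and 0.315 in high Se. Low Se was above every other library (limma adjusted p = 0.00977 against control), and no fold change is given against a group at 0. The high Se value, which lies between, passed neither against control (limma adjusted p = 0.174) nor against low Se (0.461).

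MSTRG.129749.1 is 1300 bases long and lies on chromosome 7.3 (11490855 to 11492154), also with no listed lncRNA within 10 kb. It had 13.2, 8.92 and 7.49 FPKM in control, was listed at 0 in all low Se libraries and had 4.52, 3.85 and 5.87 in high Se. Low Se was thus off while both other groups were on, with limma adjusted p of 0.0143 against control. The comparison of high with low Se just missed the threshold, at 0.0566.

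The next by p did not pass. MSTRG.36675.1, of 1079 bases on chromosome 2.3 (12542599 to 12543677), had 10.5, 74.8 and 42.8 FPKM in control, 610, 324 and 215 in low Se and 480, 486 and 316 in high Se. Every selenite library was above every control library, and the low Se mean was 8.97 times the control mean (log2 change 3.43 ± 0.62 SE, limma adjusted p = 0.0748). MSTRG.36675.1 was the second most abundant of the 1265 and the nearest to passing in both comparisons with control together. Since the comparisons share the control libraries, the 2 values are not independent of each other.

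Lower in low Se without passing were MSTRG.77411.1, MSTRG.11750.1, MSTRG.70186.1, MSTRG.7819.1 and MSTRG.131648.1, with limma adjusted p of 0.0987, 0.0995, 0.22, 0.247 and 0.257. MSTRG.77411.1 (1836 bases, chromosome 4.3, 526436 to 528271) had 5.25, 4.06 and 2.88 FPKM in the control libraries, 0 throughout low Se and 3.79, 2.26 and 2.80 in the high Se libraries. MSTRG.70186.1 (1110 bases, chromosome 4.1, 58268137 to 58269246) had 5.81, 9.19 and 6.85 in control, 0.485, 0.48 and 1.44 in low Se and 12.3, 10.3 and 9.14 in high Se. In both, as in MSTRG.129749.1 and MSTRG.11750.1, low Se alone was low. MSTRG.131648.1 (1066 bases, chromosome 7.3) had 10.5, 13.6 and 13.2 FPKM in control, 0.0787, 1.499 and 1.27 in low Se and 3.57, 2.09 and 0.376 in high Se, so both selenite groups were below control. Higher in low Se without passing were MSTRG.130637.1, MSTRG.155241.1, MSTRG.118797.1 and MSTRG.70416.1, with limma adjusted p from 0.124 to 0.333. MSTRG.155241.1 (1005 bases, chromosome 8.4) had 3.53, 2.35 and 5.99 FPKM in low Se and was listed at 0 in the other 6 libraries.

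The count of 2 depended on single libraries. It was 0 without control 2, control 3, low Se 2, high Se 1 or high Se 2, and 1, MSTRG.129749.1, without low Se 1 or low Se 3. Without control 1 the count stayed at 2, but MSTRG.69946.1 no longer passed (limma adjusted p = 0.0521) and MSTRG.130637.1 did (0.0223). With each of the 9 libraries left out in turn, MSTRG.69946.1 lost its call in 8 fits (limma adjusted p from 0.00179 to 0.116 over the 9) and MSTRG.129749.1 in 5 (0.0205 to 0.116). The count was also 0 without the variance trend, in a fit of these 6 libraries alone, and without both control 1 and low Se 1, 1 when an average of 2 FPKM was required and 4 without the filter.

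At the higher dose none of the 1179 passed against control in limma, and 0.0229% of all tested transcripts did. An unadjusted p under 0.05 was reached by 96 (8.14%, against 9.26% of all tested): 65 were higher in high Se (background 6.11%) and 31 lower (background 3.15%). The median log2 change was 0.24, beside 0.26 for all tested transcripts, and it was 0.14 when libraries were rescaled by median of ratios and 0 under quantile normalization. Groups did not overlap for 123 that were higher in high Se (10.4%, background 7.81%) and 77 that were lower (6.53%, background 4.02%).

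MSTRG.36675.1 had the smallest p of the 1265 here, with the values given above and a log2 change of 3.69 ± 0.62 (SE, limma adjusted p = 0.0622). It passed with a pseudocount of 1 (0.0403), with weights for libraries (0.0426) and without the filter (0.00131). It did not pass in the other alternatives, with 0.146 for a pseudocount of 0.01, 0.276 without the variance trend, 0.416 in these 6 libraries alone and 0.352 to 0.424 without any 1 high Se library (limma adjusted p). MSTRG.116556.1 and MSTRG.144191.1 were above 0 in high Se alone. MSTRG.116556.1 (1247 bases, chromosome 6.3, 84183227 to 84184473) had 15.0, 12.4 and 6.23 FPKM there and MSTRG.144191.1 (1285 bases, chromosome 8.2, 4137111 to 4138395) had 9.25, 4.98 and 11.2, and both were listed at 0 in all control and low Se libraries. Their limma adjusted p were 0.104 and 0.156 against control. With a pseudocount of 1 both passed, so that 3 transcripts were called, all higher in high Se.

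MSTRG.24678.1 (1749 bases, chromosome 1.4) was also above 0 in high Se alone, at 10.01, 0.59 and 11.1 FPKM (limma adjusted p = 0.329). MSTRG.154175.1 (1043 bases, chromosome 8.4) was off in control, at 0 in its 3 libraries, and had 2.56, 0 and 2.81 FPKM in low Se and 3.43, 2.77 and 6.38 in high Se. With MSTRG.69946.1 these were the 6 with the smallest p among those whose high Se libraries all lay above control.

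Lower in high Se without passing were MSTRG.108187.1, MSTRG.73674.1, MSTRG.73675.1, MSTRG.43892.1, MSTRG.7819.1 and MSTRG.57745.1, with limma adjusted p from 0.32 to 0.417. MSTRG.108187.1 (1061 bases, chromosome 6.1, 65219963 to 65221023) had 9.26, 35.7 and 36.7 FPKM in control, 9.56, 3.22 and 4.47 in low Se and 5.25, 4.19 and 0.32 in high Se. MSTRG.7819.1 (1367 bases, chromosome 1.1) had 4.24, 2.68 and 6.44 in control, 0 in all low Se libraries and 0, 0.348 and 0.071 in high Se, a control-only pattern in all but traces. The count of 0 became 1 without control 1, through MSTRG.63077.1 (limma adjusted p = 0.0344), which was named after its values were seen. MSTRG.63077.1 had 37.4 FPKM in control 1, 0 and 0.0681 in control 2 and 3, 4.19, 3.65 and 3.79 in low Se and 24.8, 8.96 and 9.38 in high Se, so control 1 was the highest of all libraries and the other control libraries were the lowest.

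**Figure D3:**
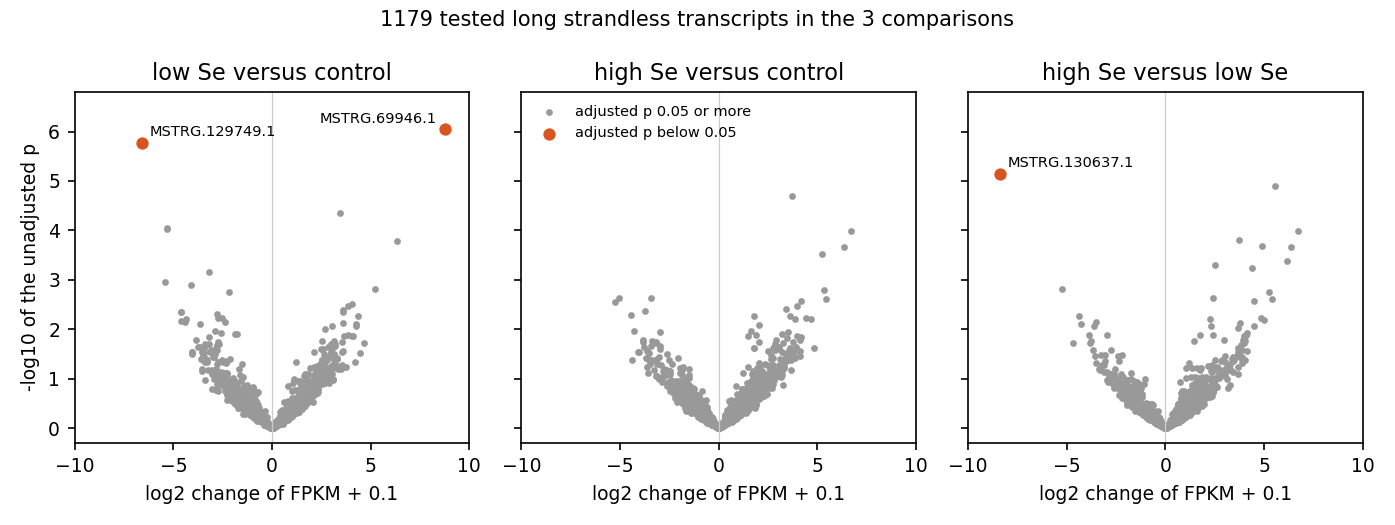
Log2 change of FPKM + 0.1 (horizontal axis) against the -log10 of the unadjusted p (vertical axis) for the 1179 tested long strandless transcripts in each comparison. Orange points have an adjusted p below 0.05: 2 in low Se versus control, 0 in high Se versus control and 1 in high Se versus low Se.

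The doses were then compared directly. MSTRG.130637.1 alone passed, lower in high Se, where 0.0206% of all tested transcripts did. It is 1127 bases long and lies on chromosome 7.3 (23915702 to 23916828). Low Se libraries held 39.1, 46.2 and 46.4 FPKM of it, high Se libraries 0.117, 0 and 0, and control libraries 5.998, 0.174 and 0 (limma adjusted p = 0.0442 between the doses). Low Se stood above the other 6 libraries, and the difference from control did not pass (0.124). An intergenic lncRNA of 478 bases, MSTRG.130638.1, starts 7847 bases away and had 0.702, 0 and 0 FPKM in low Se and 2.42, 5.63 and 0 in high Se, a different pattern.

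An unadjusted p under 0.05 was reached by 74 of the 1179 (6.28%, against 7.84% of all tested), 53 higher in high Se (background 5.23%) and 21 lower (background 2.61%). The median log2 change was 0.16, against 0.20 for all tested transcripts, and it was -0.10 after quantile normalization. Groups did not overlap for 121 higher in high Se (10.3%, background 7.31%) and 74 lower (6.28%, background 3.94%).

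Among those higher in high Se, the smallest p belonged to MSTRG.129749.1, MSTRG.116556.1, MSTRG.70186.1, MSTRG.77411.1, MSTRG.144191.1 and MSTRG.46108.1, with limma adjusted p of 0.0566, 0.166, 0.194, 0.209, 0.211 and 0.283, none of which passed. For MSTRG.70186.1 the change was 3.72 ± 0.76 (SE) on the log2 scale. MSTRG.46108.1 (1214 bases, chromosome 3.1) had 2.65, 4.61 and 0 FPKM in control, 0 in all low Se libraries and 12.9, 5.58 and 4.67 in high Se. Among those lower in high Se, MSTRG.155241.1, MSTRG.116036.1 and MSTRG.28856.1 were above 0 in low Se alone and MSTRG.107646.1 was at most 0.114 FPKM in high Se and at least 0.583 in the other libraries (limma adjusted p = 0.352, 0.446, 0.465 and 0.468). MSTRG.116036.1 had 1.66, 2.22 and 2.10 FPKM in low Se. The count of 1 was 0 without any 1 library except control 1. A pseudocount of 1 gave 3 and one of 0.01 gave 0, and with the replicate number as a block it was 0 (limma adjusted p = 0.0648).

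**Figure D4:**
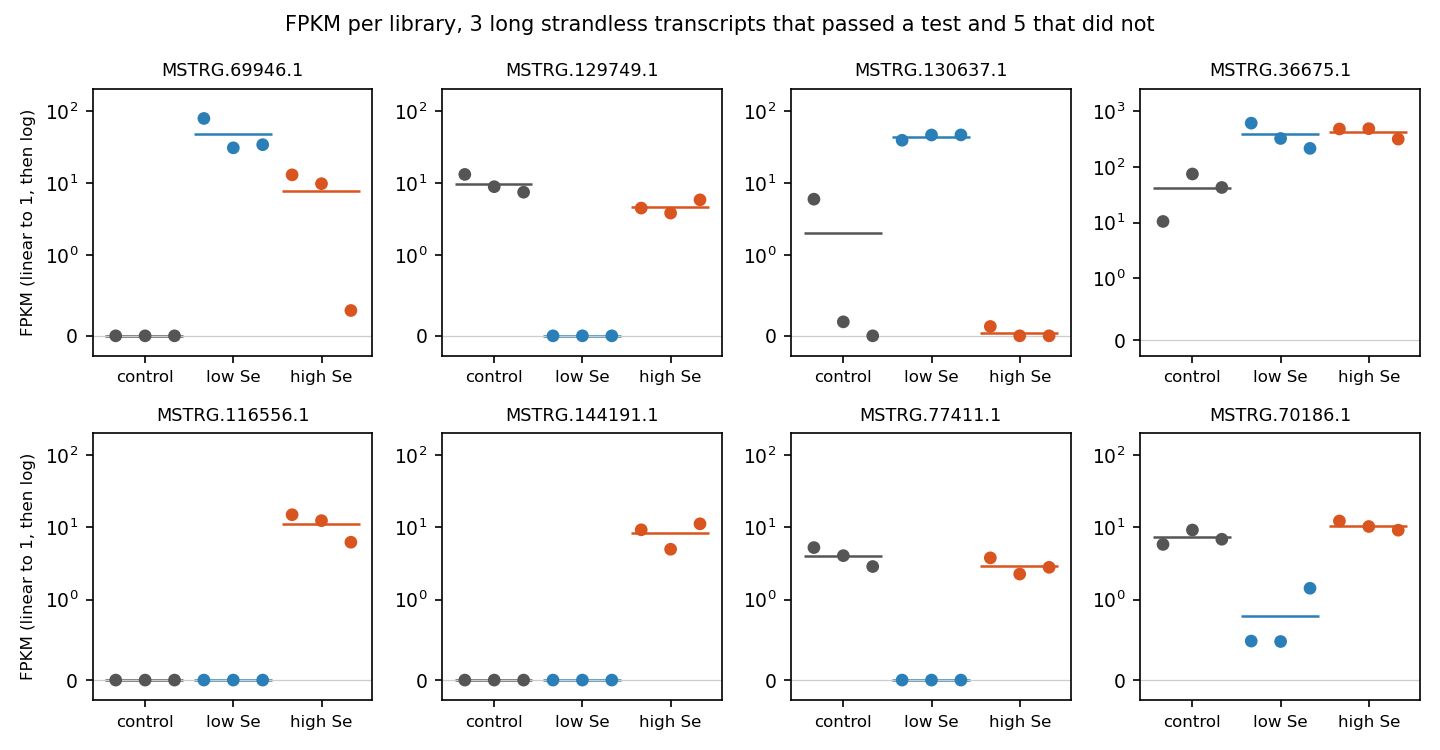
FPKM per library (vertical axis, linear up to 1 and logarithmic above) in the 3 groups for 8 long strandless transcripts, with a line at each group mean. MSTRG.69946.1, MSTRG.129749.1 and MSTRG.130637.1 passed a test, and the other 5 did not, among them MSTRG.36675.1 with 10.5 to 74.8 FPKM in control and 215 to 610 in the selenite libraries.

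Across the 3 groups the F test of any difference called MSTRG.69946.1, MSTRG.129749.1 and MSTRG.130637.1, with limma adjusted p of 0.0207, 0.0207 and 0.0452. That is 3 of 1179, and 0.0434% of all tested transcripts were called. MSTRG.36675.1 followed at 0.0513. An unadjusted p under 0.05 was reached by 96 (8.14%, background 8.94%). The count of 3 was 0 without control 2, control 3, low Se 2, high Se 1 or high Se 2 and 1 without low Se 1, low Se 3 or high Se 3. A pseudocount of 1 gave 6.

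Complete on and off patterns by group were rare. Among the 1265, 5 had no signal in any low Se library and some in each of the other 6 (background 0.201%), 3 were at 0 in every control library and above 0 elsewhere (background 0.294%), and 1, MSTRG.73674.1, was at 0 in every high Se library and above 0 elsewhere (background 0.0587%). Conversely, 4 were above 0 in high Se alone (background 0.529%), 6 in low Se alone (background 0.235%) and 1, MSTRG.12643.1, in control alone (background 0.227%). These counts are too small to set against the background. MSTRG.12643.1 had 5.62, 0.485 and 0.79 FPKM in control. The 5 that were off in low Se comprised MSTRG.129749.1, MSTRG.77411.1, MSTRG.20844.1, MSTRG.103823.1 and MSTRG.113735.1. Of these, MSTRG.103823.1 ran from 0.606 to 0.854 FPKM in the control libraries and from 1.24 to 4.12 in the high Se ones.

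Long strandless transcripts that lay close together had similar profiles over the libraries. Of the 1265, 164 (13.0%) lay within 10 kb of another, in 79 groups of at most 4. For 77 consecutive pairs of tested transcripts with a gap under 10 kb, the median Pearson's r of log2(FPKM + 0.1) over the 9 libraries was 0.54 (quartiles 0.26 and 0.81), and 72 of the 77 had a positive r. For 53 pairs with gaps of 10 to 50 kb the median was 0.39, for 93 pairs at 50 to 250 kb it was 0.16 and for 849 pairs farther apart it was 0.03. An r above 0.8 was reached by 27.3% of the pairs under 10 kb and by 2.31% of the 995 pairs from 10 kb on, among them 12 of the 53 at 10 to 50 kb. All pairs share the same 9 libraries and their depths, and pairs within a group of neighbours share members, so r is a description without a test. With a pseudocount of 1 or 0.01 or without any 1 library, the median under 10 kb was 0.50 to 0.57 and that from 10 kb on was 0.04 to 0.07.

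**Figure D5:**
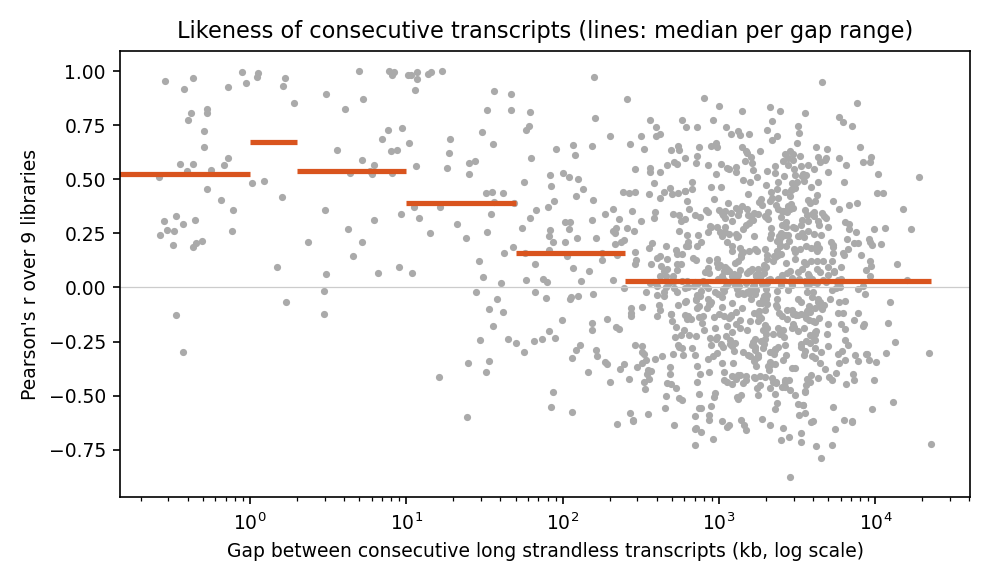
Pearson's r over 9 libraries (vertical axis) against the gap between consecutive tested long strandless transcripts (horizontal axis, kb on a log scale), with a grey point per pair and an orange line at the median of each gap range. The median is 0.53 under 1 kb, 0.54 at 2 to 10 kb and 0.03 beyond 250 kb.

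On chromosome 1.2 between 13862371 and 13881041, MSTRG.12070.1, MSTRG.12074.1 and MSTRG.12079.1 had nearly the same profile. MSTRG.12070.1 had 6.66, 18.2 and 6.54 FPKM in control, 0, 11.8 and 4.95 in low Se and 9.32, 7.48 and 0 in high Se. MSTRG.12074.1 had 2.89, 11.8 and 5.74 in control, 0.031, 6.19 and 2.70 in low Se and 5.57, 3.93 and 0 in high Se. MSTRG.12079.1 had 1.53, 2.99 and 1.13, then 0, 1.70 and 0.772, then 1.58, 1.86 and 0 FPKM. All 3 were highest in control 2 and at or near 0 in low Se 1 and high Se 3, with r of 0.99 and 0.98 between neighbours, and none passed a test between groups.

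On chromosome 4.2, MSTRG.73674.1 (22794663 to 22795884) and MSTRG.73675.1 (22796318 to 22797992) are separated by 433 bases. MSTRG.73674.1 had 12.1, 1.36 and 1.89 FPKM in control, 0.137, 0.361 and 1.90 in low Se and 0 in high Se. MSTRG.73675.1 had 8.74, 1.496 and 3.81 in control, 0, 0.12 and 2.48 in low Se and 0 in high Se. Both were highest in control 1, were present in low Se 3 and were listed at 0 in all high Se libraries, with r = 0.97. The shorter strandless MSTRG.73679.1, of 497 bases and 5929 bases from MSTRG.73675.1, had 11.8, 8.05 and 3.53 FPKM in control and at most 0.749 in high Se.

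On chromosome 4.1, MSTRG.70416.1 and MSTRG.70417.1 lie 285 bases apart, with r = 0.95. This pair and the one on chromosome 4.2 are among the neighbours with the highest r. They are not typical, since the median r under 10 kb was 0.54. MSTRG.70416.1 had 0, 0.396 and 0 FPKM in control, 2.41, 3.07 and 1.80 in low Se and 1.93, 2.31 and 1.79 in high Se, and MSTRG.70417.1 had 0, 0.462 and 0, then 0.971, 1.77 and 1.38, then 2.95, 3.74 and 1.82. In both, the selenite libraries were all above the control libraries, and neither passed (limma adjusted p = 0.333 for MSTRG.70416.1 in low Se against control).

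The largest groups of neighbours held 4 transcripts each. On chromosome 8.3 (76701470 to 76718235), MSTRG.153563.1, MSTRG.153568.1, MSTRG.153570.1 and MSTRG.153571.1 had means of 1.14, 2.46, 2.71 and 1.73 FPKM over the libraries. The first of these was at 1.87, 1.29 and 1.40 FPKM in high Se and at 1.12, 0.459 and 0.349 in low Se, and each of the other 3 also had its highest group mean in high Se without passing. On chromosome 8.4 (49695136 to 49708765), MSTRG.156950.1, MSTRG.156952.1, MSTRG.156953.1 and MSTRG.156954.1 had means of 1.23, 1.05, 1.59 and 3.35 FPKM. In this group MSTRG.156950.1 was at 3.905 FPKM in control 1 and at 0 in control 2, where MSTRG.156952.1 had 0 and 2.85, so that neighbours 450 bases apart did not always share their libraries. Another group, on chromosome 3.2, joined MSTRG.52842.1, with 15.8 FPKM on average, to MSTRG.52841.1 and MSTRG.52846.1, with 1.58 and 1.53. On chromosome 2.4, MSTRG.40980.1 and MSTRG.40981.1, 296 bases apart, had means of 7.11 and 14.7 FPKM.

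The pairs of neighbours with the highest r, chosen after their values were seen, included some that were on in few libraries. MSTRG.57571.1 and MSTRG.57575.1, 4981 bases apart, were above 0 in high Se 2 (3.40 and 3.76 FPKM) and high Se 3 (3.48 and 3.58) alone. MSTRG.129806.1 and MSTRG.129807.1, 7771 bases apart, matched in level too, with 1.68 and 1.55 FPKM in control 1, 0 for both in low Se 1 and low Se 3 and 2.42 and 2.27 in high Se 3. Both pairs had equal CPC and CNCI scores and lengths within 4 bases of each other.

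In all, 40 of the 1265 formed 20 pairs with equal CPC and CNCI scores, of which 13 had lengths within 4 bases. Of these pairs 16 lay on 1 chromosome, 6 of them under 10 kb apart, and their median r over the libraries was 0.98, with 0.09 as the lowest. MSTRG.123525.1 and MSTRG.123527.1, both of 1123 bases and 8339 bases apart, had r of 0.995. MSTRG.124537.1, which was on in high Se 2 alone, shared its scores with the abundant MSTRG.129710.1 on the next copy of chromosome 7, with 2060 and 2064 bases. Near-identical copies could split reads between them, so the levels of such pairs are uncertain, and no sequence was compared. Coverage times length was close to a whole number of bases for 42.0% (high Se 3) to 54.8% (control 3) of the long strandless transcripts above 0 in a library. Whether reads were shared in the others was not tested. Without the equal-score pairs, a choice made after the data were seen, the median r under 10 kb was 0.53 over 71 pairs and from 10 kb on 0.04 over 987 pairs.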

How the data were processed

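Leaf RNA was depleted of ribosomal RNA and sequenced as dUTP libraries, per the labels' protocols. The submitters' processing notes list Bowtie2, HISAT2, StringTie and edgeR without roles or versions. The authors deposited FPKM and, as an unscaled signal, coverage for each transcript and library, per the file headers. Their table holds CPC and CNCI scores, per the file headers. Values of 0.0001 stood for 0 and were set back. The genome build is not given in the sources used here, so no sequence is shown, and RefSeq gene names were not used.

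Coverage divided by FPKM gave aligned gigabases. Coverage times length divided by 141 bases, the most common value at low coverage, gave estimated reads. Depth per value is not counted directly, so no counting interval is given.

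All 9 libraries entered 1 limma 3.58.1 fit (R 4.3.3, variance trend) of log2(FPKM + 0.1) over the 43763 transcripts that averaged 0.5 FPKM or more. P-values were adjusted by Benjamini-Hochberg over all of them and called below 0.05. 1179 of the 1265 long strandless transcripts were tested, and 86 had a lower mean. Fold changes on this scale understate those of low values. The fit was tested on simulated normal log2 values without zeros or a pseudocount, so that test does not cover calls that rest on zeros. Named transcripts are those that passed, up to 6 in each direction and comparison with the smallest p among those with groups that do not overlap and at least 1 FPKM in the higher group, the 10 highest, the 5 longest, the 5 steadiest, those at the length limit and the 5 largest groups of neighbours. Exceptions are marked. The transcripts, sets and rules were chosen with earlier results of these data known.

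Same-numbered libraries of different groups did not deviate together, so the numbers were not treated as pairs. Alternatives covered the pseudocount, filter, scaling, variance model, weights, samples in the fit, block, threshold and each library left out. Python 3.11.15, pandas 2.3.3, NumPy 2.4.6 and matplotlib 3.10.9 were used.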

Additional observations from a re-analysis of the deposited data

Results flagged for a closer look

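MSTRG.130637.1 was singled out because a direct test found its level to differ between the doses (limma adjusted p = 0.0442): low Se libraries were at 39.1 to 46.4 FPKM and high Se libraries at 0 to 0.117, with 0 to 5.998 in control. The call is fragile. It was lost in 8 of the 9 fits that left out 1 library (limma adjusted p from 0.0179 to 0.431 over the 9) and in 5 of 11 other fits.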

How the results depend on the processing

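Counts of long strandless transcripts called depended on most choices, and the cause of each change was not tested beyond what the choice itself removes. For low Se against control the count of 2 became 4 without the filter, 1 when an average of 2 FPKM was required, 5 at an adjusted p below 0.1, and 0 without the variance trend, in the 6 libraries alone and without control 1 and low Se 1 together, a choice made with the data in view. For high Se against control the count of 0 became 3 with a pseudocount of 1 and 1 without the filter, with weights for libraries or at an adjusted p below 0.1. For high against low Se the count of 1 became 3 with a pseudocount of 1, 2 with weights, with no filter or at an adjusted p below 0.1, and 0 with a pseudocount of 0.01, a required average of 2 FPKM, no variance trend, the replicate block or without both control 1 and low Se 1. For any difference the count of 3 became 6 with a pseudocount of 1 or at an adjusted p below 0.1, 5 without the filter or with weights, 1 when an average of 2 FPKM was required and 0 without the variance trend or those 2 libraries. With 1 library left out the counts ran from 0 to 2, 0 to 1, 0 to 1 and 0 to 3 in the same order.

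The replicate block changed no other count: it gave 2, 0 and 3 for low Se against control, high Se against control and any difference. The deviations of same-numbered libraries correlated at -0.03 to 0.00147, and those of other-numbered ones at -0.03 to 0.03. Such values cannot show whether same-numbered libraries shared a plot or a preparation. No named transcript changed direction under any alternative run in the comparison it is named for. With 0.5 FPKM or more as detection, 823.3 ± 104.6, 852.3 ± 60.7 and 917.3 ± 13.6 long strandless transcripts were detected in control, low Se and high Se (mean ± SD, n = 3); with 1 library left out the numbers above 0 were 935.0 to 1013, 979.5 to 1028 and 1051 to 1078. With 2 kb or 50 kb in place of 10 kb, 95 or 261 had a neighbour. At 14.8 to 35.7 reads in the median, single values are imprecise.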
